A study of Danio rerio with 1109 samples.

Results

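Integrins are cell surface receptors built from 1 alpha and 1 beta subunit that tie cells to the extracellular matrix, and laminins are the secreted trimers of 1 alpha, 1 beta and 1 gamma chain that basement membranes are built on. The integrin and laminin genes of the zebrafish trunk were taken from the table of counts by their symbols. All genes whose symbol starts with ITGA followed by a number, E or V, with ITGB and a number, or with LAMA, LAMB or LAMC and a number were members, apart from the gene *lamb2*. The rule found 47 of 32057 genes. Of these, 20 were alpha integrin genes (7 collagen-binding, 4 that bind the RGD motif, 5 laminin-binding, 2 of the alpha 4 and 9 group and 2 of alpha E), 12 were beta integrin genes, and 13 were laminin chains (5 alpha, 5 beta and 3 gamma). The other 2, *ITGB1BP1* and *itgb3bp*, met the rule by name but encode binding proteins and not subunits.

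The cells came from trunks of embryos at 48 hpf and were sorted singly into plates by the fluorescence of a reporter. They were sequenced with Smart-seq2, which amplifies full-length cDNA and has no molecular identifiers. Embryos carried either the *pdgfra:mCit* reporter, which marks fibroblasts (1 plate, called the *pdgfra* plate), or *vegfc:Gal4FF;UAS:GFP* together with *kdrl:mCherry*, which marks blood vessels (744 of the 1109 cells, on 2 plates called *vegfc* plate 1 and *vegfc* plate 2). No embryo carried a mutation or received a treatment according to the labels, and trunks had been pooled and only partly dissociated, so that superficial cells were enriched. From the *vegfc* line the paper sorted GFP-positive cells without mCherry and mCherry-positive cells without GFP, and from the *pdgfra* line mCit-positive cells. All kinds of cell described here are thus selected by reporter. The labels give a plate but no animal, pool or sort gate for a cell, and so a plate is the only unit over which values can repeat.

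Subunits pair within limits that are well known from vertebrates. Beta 1 joins most alpha subunits, beta 4 joins alpha 6 at the hemidesmosomes of epithelia, beta 2 and beta 7 belong to leukocytes, and alpha V takes several beta partners. Laminin alpha chains decide much of where a trimer is found. The alpha 2 chain is a component of muscle basement membranes, alpha 4 of vessels and many mesenchymal tissues, and alpha 1 and alpha 5 of embryonic and epithelial basement membranes.

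Cells were assigned to kinds by marker genes, each counted as present at 20 raw counts or more. The study used 20 counts for an expressing cell of *adamts3*, *adamts14*, *ccbe1* and *vegfc*, without saying whether raw or scaled counts are meant. It did not state this threshold for markers of cell kinds. A fibroblast needed 3 of 6 genes (*pdgfra*, *lum*, *dcn*, *col1a1a*, *col1a2*, *col5a1*) with 1 of the first 3 among them. By this gate 663 cells were fibroblasts, 33 muscle, 33 epithelial, 17 endothelial, 58 neural, 66 immune and 5 pigment cells. A further 14.7% of all cells passed more than 1 gate and were left out as mixed, 69.9% of them on *vegfc* plate 1, and 71 cells passed none. Of the mixed cells 35 passed the muscle, 59 the epithelial and 88 the immune gate, more than the 33, 33 and 66 kept. For the fibroblast, endothelial (4 cells), neural (22) and pigment gates (1) fewer cells were mixed than kept. A mixed cell counts here under each gate it passed. The comparisons with muscle and epithelial cells thus rest on the smaller part of the cells that passed those gates. In fibroblasts *lum* was at 20 counts in 52.2% of cells and *col1a1a* in 99.5%. The other kinds were gated in the same way, each from its own markers. The muscle regulator *myod1* was found in 81.8% of muscle cells, *epcam* in 87.9% of epithelial cells, *cdh5* in 82.4% of endothelial cells, the neuronal gene *elavl3* in 70.7% of neural cells and the leukocyte gene *ptprc* in 83.3% of immune cells. All of these genes, *lum* and *col1a1a* included, were markers of their own gates at the same threshold. The shares therefore follow in part from the gates and are no separate check of identity. Between 50045 and 782140 counts fell on genes in a cell, with a median of 298220.

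Abundant transcripts also appeared at low counts in cells of other kinds. On *vegfc* plate 1 the median count of the neutrophil gene *lyz* was 31 in fibroblasts and 142.5 in immune cells, and *col1a1a* had a median of 133.5 counts in immune cells and 2786 in fibroblasts. On the *pdgfra* plate the fin fold gene *and1* had a median of 167.5 counts over all fibroblasts, and it and *and2* were above 20 counts also in the only immune cell. The part that such counts play in the gates was not tested. Each count of members is therefore also given with a stricter gate, chosen after this had been seen, in which a marker had to reach 10% of its 99th percentile on the plate. It applied to the markers of all kinds and so changed both sides of a comparison. With it 596 cells were fibroblasts, 44 muscle, 46 epithelial and 19 endothelial.

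Levels are counts summed over the cells of a kind on a plate, scaled to the total of all gene counts of those cells (CPM). They can be compared between kinds for 1 gene but not between genes, since they are not corrected for length. A ratio is the log2 of (CPM + 1) of the first kind over (CPM + 1) of the second within a plate, averaged over the plates that held at least 3 cells of both. A member was called higher or lower at a mean of at least 1 or at most -1 with the same sign on every such plate. No test was run, since the labels name no animal or pool and values repeat over at most 3 plates, and the SD is that over plates. Of the 47 members, 44 had at least 300 counts in all in at least 3 cells and entered the ratios. The 3 that did not were *ITGA2*, *lama3* and *lamb3*, and the last of them had 45 counts over all 1109 cells. For 32 members the level reached 20 CPM and at least 10% of the cells had 20 counts in some kind or fibroblast subset, and these are described by value.

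The names table gives 4 identifiers as *ITGB1*, called copies 1 to 4 here (ENSDARG00000022689, ENSDARG00000053232, ENSDARG00000071863 and ENSDARG00000104484). *LAMB1* has copies 1 and 2 (ENSDARG00000045524 and ENSDARG00000101209), *ITGB3* has copies 1 and 2 (ENSDARG00000045070 and ENSDARG00000056767), and so does *ITGA11* (ENSDARG00000007950 and ENSDARG00000036086). Reads from such related genes may have been split between them, and their values carry that uncertainty.

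**Figure D1:**
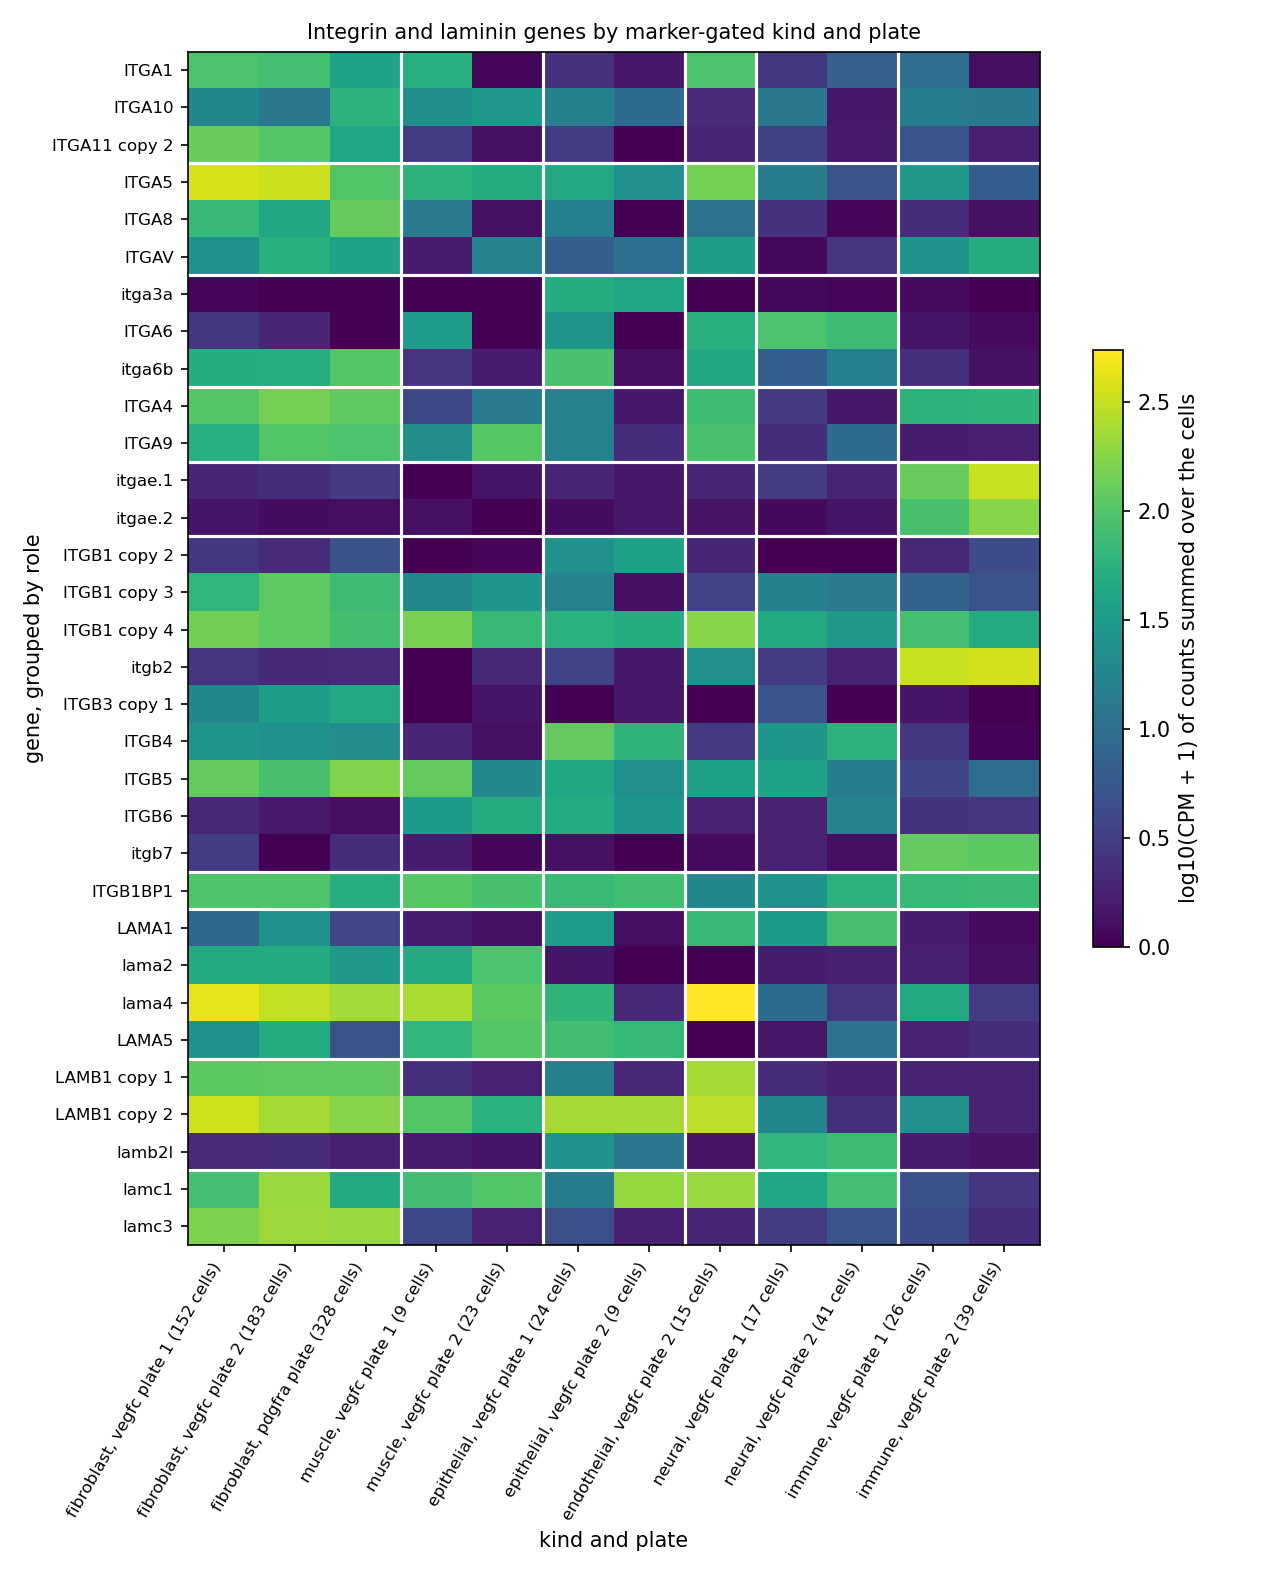
Summed level of the 32 described genes (log10 of CPM + 1, colour) in each kind of cell and plate (columns, with the number of cells), grouped by role (white lines). Colours compare columns within a gene and not genes with each other. *lamc3* is at 161.15 to 213.9 CPM in the fibroblast columns and at most 4.16 CPM in the other columns of at least 3 cells, and *itgb2*, *itgae.1*, *itgae.2* and *itgb7* are highest in the immune columns.

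The gamma 3 laminin chain and the alpha 11 integrin subunit encoded by copy 2 were higher in fibroblasts than in each of the other kinds. *lamc3* stood at 161.15, 213.9 and 206.8 CPM in fibroblasts of *vegfc* plate 1, *vegfc* plate 2 and the *pdgfra* plate, against 2.96 and 0.775 CPM in muscle, 3.64 and 0.746 CPM in epithelial and 0.976 CPM in endothelial cells (15 cells of *vegfc* plate 2). The fibroblast levels of the 3 plates lay apart from those of every other kind. *lamc3* reached 20 counts in 43.1% of 663 fibroblasts (exact 95% interval 39.3 to 47.01) and in none of 33 muscle, 33 epithelial, 17 endothelial and 66 immune cells, which allows shares of up to 9.09%, 9.09%, 17.6% and 4.55%. Its level per fibroblast ran between 0 and 2870 CPM around medians of 6.81, 4.64 and 64.6 CPM on the 3 plates, so that many cells of each plate held little of it. *ITGA11* copy 2, a collagen receptor of mesenchymal cells, had the same restriction, with 132.3, 100.98 and 39.6 CPM in fibroblasts and at most 4.17 CPM in any other kind of the *vegfc* plates. The limit given for a share of 0 is 3 cells over the number of cells, which lies somewhat below the exact 95% bound. Intervals and limits given here cover counting error only.

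*ITGA5*, the alpha subunit of the main fibronectin receptor, was at 375.9 and 338.2 CPM in fibroblasts of the *vegfc* plates, against 58.1 and 49.1 CPM in muscle, 44.3 and 23.1 CPM in epithelial, and 144.9 CPM in endothelial cells of *vegfc* plate 2. On the *pdgfra* plate fibroblasts had 98.5 CPM, below both *vegfc* plates and below the endothelial cells. *ITGA8*, a receptor of nephronectin, stood at 66.7, 43.3 and 122.6 CPM in fibroblasts, against 12.8 and 0.332 CPM in muscle and 14.3 and 0 CPM in epithelial cells. *ITGB3* copy 1, whose known partner is alpha V, was at 17.004, 32.6 and 43.5 CPM in fibroblasts and at most 0.498 CPM in muscle, epithelial and endothelial cells. *ITGAV* itself was less restricted, with 24.2, 54.3 and 36.9 CPM in fibroblasts, 32.99 CPM in endothelial cells of *vegfc* plate 2 and 24.8 and 49.02 CPM in immune cells of the *vegfc* plates.

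Against muscle, 22 of the 44 members were higher in fibroblasts and 3 were lower, where 31.3% and 12.7% of all 18529 genes were called. The median ratio of the members was 1.02, or 0.81 with every value at 0 counts set to the bound given by 3 counts, against 0.44 over all genes. The 6 highest were *lamc3* (6.14 ± 1.10, SD, n = 2 plates, as for the following), *ITGA11* copy 2 (5.87 ± 0.54), *LAMB1* copy 1 (5.80 ± 0.28), *itga6b* (4.57 ± 0.50), *ITGB3* copy 1 (4.36 ± 0.26) and *ITGA4* (4.08 ± 0.85). The members called higher included 5 of 6 collagen-binding alpha genes tested, 3 of 4 RGD-binding genes and 7 of 12 beta genes. Among them *ITGA11* copy 1, *itga2.1*, *itga2.3* and *ITGB1* copy 2 were at most at 3.13 CPM in fibroblasts of the *vegfc* plates. Calls at such levels, near the 1 CPM added to each level, rest on few counts. With the stricter gate, which brought 8 muscle cells of the *pdgfra* plate into the comparison, 19 were higher and 2 lower, 18 and 2 of them shared, where 25.1% and 9.57% of all genes were called.

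*LAMB1* copy 1, a laminin beta chain, separated fibroblasts from muscle more than *LAMB1* copy 2 did. Copy 1 had 110.9 and 112.3 CPM in fibroblasts of the *vegfc* plates, against 1.31 and 0.775 CPM in muscle cells, while copy 2 had 346.3 and 234.1 CPM in fibroblasts, against 100.5 and 54.4 CPM in muscle cells. *ITGA4*, a receptor subunit for fibronectin and VCAM1, had 100.99 and 144.8 CPM in fibroblasts, against 2.96 and 12.1 CPM in muscle cells, and 1 muscle cell held 77.1% of the counts over all muscle cells. *ITGA1* was higher by the mean (3.54 ± 3.82) but not alike on the plates: 92.3 and 82.8 CPM in fibroblasts stood against 51.2 and 0.111 CPM in muscle, and 1 of 9 muscle cells held 97.4% of the counts on *vegfc* plate 1.

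The members lower in fibroblasts than in muscle were *ITGB6* (-4.47 ± 0.80), *itgb3bp* (-1.25 ± 1.34) and *LAMA5* (-1.18 ± 0.18). None of them was called once the highest cell of each gene was left out, and *LAMA5* was at 1.38 and *itgb3bp* at 1.27 with 10 counts for a marker. *itgb3bp* was also above 0 with the stricter gate (0.39). *ITGB6*, a beta partner of alpha V known from mammalian epithelia, had 1.08 and 0.523 CPM in fibroblasts, against 30.2 and 48.9 CPM in muscle cells. In muscle it was a gene of few cells, 18.2% of which had 20 counts. Fibre cells, which expressed at least 2 of *actn3a*, *actn3b*, *smyhc1* and *atp2a1*, had 82.2 CPM of it over all plates (15 cells) and the other muscle cells 10.1 CPM (18 cells). *lama2*, whose loss causes muscular dystrophy, did not pass the call between fibroblasts (45.7 and 45.7 CPM) and muscle (46.6 and 91.7 CPM), but within muscle it was at 166.1 CPM in the fibre cells and at 4.72 CPM in the others, and *ITGA9* showed the opposite order with 0.702 and 155.5 CPM. The single highest cell held 25.5% of the *lama2* counts of fibre cells and 39.4% of the *ITGA9* counts of the others.

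Against epithelial cells, 19 members were higher in fibroblasts and 10 lower, where 24.7% and 16.3% of all genes were called, and the median was 0.66 (0.65 with zeros at the bound) against 0.17 over all genes. With the stricter gate the counts were 17 and 10, all of them shared, where 24.3% and 18.3% of all genes were called. *ITGA11* copy 2 (6.08 ± 0.84, n = 2 plates, as for the following), *lamc3* (6.04 ± 1.28), *ITGA1* (5.53 ± 0.39), *lama2* (5.28 ± 0.37), *lama4* (5.04 ± 3.15) and *ITGA4* (4.62 ± 2.81) were highest. *ITGA1*, a collagen receptor subunit, had 92.3 and 82.8 CPM in fibroblasts and 1.43 and 0.498 CPM in epithelial cells. The large SD of *lama4* and *ITGA4* came with *vegfc* plate 1, where epithelial cells had 60.3 and 15.5 CPM of these genes, against 0.995 and 0.498 CPM on *vegfc* plate 2. A single cell held 41.4% of all epithelial *lama4* counts and 89.5% of the *ITGA4* counts.

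Several laminin-binding and beta subunits were higher in epithelial cells. The lowest ratios were those of *itga3a* (-5.42 ± 0.07, n = 2 plates, as for the following), *ITGB6* (-4.35 ± 0.28), *ITGA3* (-3.77 ± 1.10), *ITGB1* copy 2 (-3.62 ± 0.64), *lamb2l* (-3.01 ± 0.83) and *itga2.1* (-2.62 ± 0.33). Without the highest cell of each gene, 4 members were called lower in fibroblasts in place of 10. A single cell held 41.2% and 89.5% of the epithelial *ITGB6* counts on *vegfc* plate 1 and *vegfc* plate 2. *itga3a*, a laminin receptor subunit, had 0.117 and 0.0174 CPM in fibroblasts, against 48.6 and 41.1 CPM in epithelial cells, and 11 of 33 epithelial cells reached 20 counts (33.3%, interval 17.96 to 51.8) but none of 663 fibroblasts, which allows a share of up to 0.452%. *ITGB1* copy 2 had 1.68 and 1.17 CPM in fibroblasts, against 23.1 and 35.6 CPM in epithelial cells, opposite to copy 3 with 62.4 and 113.1 CPM in fibroblasts, against 15.4 and 0.249 CPM. Copy 4 was found in all kinds, with 138.2 and 113.6 CPM in fibroblasts, against 54.6 and 49.02 CPM in epithelial cells. *ITGB4*, the hemidesmosome subunit, was lower in fibroblasts (26.3 and 23.7 CPM) than in epithelial cells (119.5 and 61.5 CPM), with a ratio of -1.74 ± 0.57.

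The epithelial cells were not uniform. Those with tubular markers (9 cells, at least 2 of *cldn3d*, *cdh17* and *atp1a1a.4*) had 63.2 CPM of *itga3a*, 39.5 CPM of *ITGB1* copy 2, 64.2 CPM of *lamb2l* and 314.1 CPM of *LAMB1* copy 2. In those with epidermal markers (13 cells) these genes stood at 0.231, 1.62, 1.16 and 71.03 CPM. The epidermal cells in turn had 177.7 CPM of *ITGB4* and 144.4 CPM of *itga6b*, the subunits of the alpha 6 beta 4 receptor, against 49.7 and 0.250 CPM in the tubular cells. In the epidermal cells 1 cell held 52.5% of the *ITGB4* and 61.2% of the *itga6b* counts, and 30.8% of the cells reached 20 counts of either gene. Of *ITGB4*, 4 of 9 tubular cells (44.4%) reached 20 counts, and the 2 epidermal cells of *vegfc* plate 2 had no count, so that the higher sum in epidermal cells was not a higher share of cells.

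**Figure D2:**
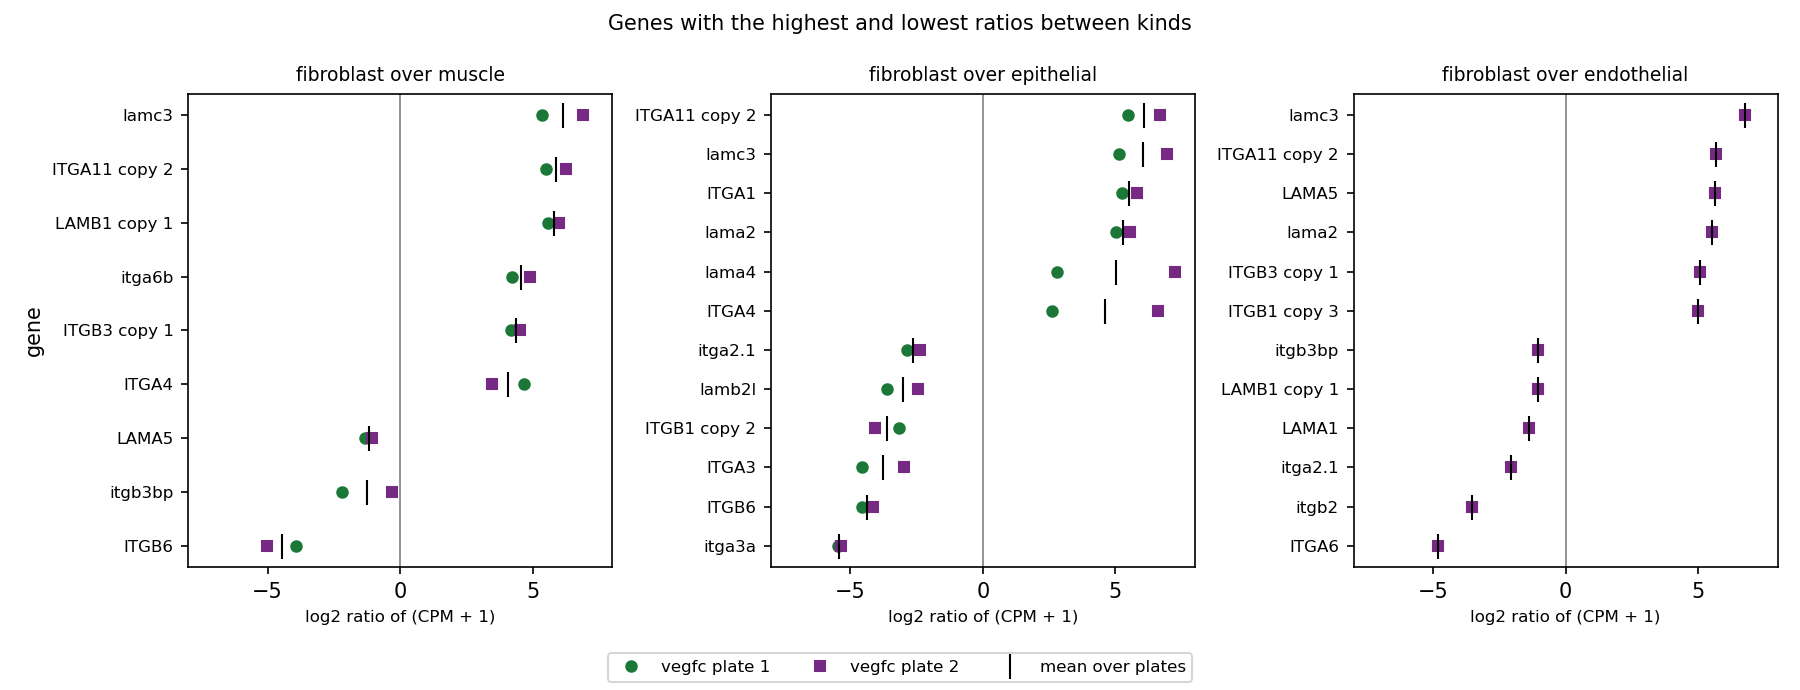
Log2 ratios of (CPM + 1) for the up to 6 highest and 6 lowest called genes of each comparison of fibroblasts with another kind. Circles and squares are the 2 *vegfc* plates and black bars the mean. *lamc3* and *ITGA11* copy 2 lie above 5 in all 3 comparisons, and *itga3a* lies at -5.42 against epithelial cells.

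Only *vegfc* plate 2 held enough endothelial cells (15, and 2 on *vegfc* plate 1) for a comparison, which therefore has no replicate. Fibroblasts were higher in 13 members and lower in 6, where 32.2% and 14% of all genes passed the same fold. The median of the members was 0.10, with or without the bound, against 0.21 over all genes. *lamc3* (6.76), *ITGA11* copy 2 (5.69), *LAMA5* (5.63), *lama2* (5.55), *ITGB3* copy 1 (5.07) and *ITGB1* copy 3 (5.01) were highest. No count of *LAMA5*, *lama2* or *ITGB3* copy 1 was found in the 15 endothelial cells. Fibroblasts with 48.4, 45.7 and 32.6 CPM were 82.7-fold, 78.04-fold and 55.7-fold above the level of 3 counts in these cells (0.586 CPM). The exact 95% bound for 0 counts lies higher, at 0.720 CPM, so these folds are not minima. *ITGB1* copy 3 had 113.1 CPM in fibroblasts and 2.54 CPM in endothelial cells.

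Several laminin chains stood in endothelial cells at levels near or above those of fibroblasts. *lama4* had 306.2 CPM (95% Poisson interval 301.7 to 310.8) in fibroblasts of *vegfc* plate 2 and 546 CPM (526 to 566) in endothelial cells. Of these endothelial cells 13 of 15 reached 20 counts. The intervals cover counting error of amplified reads only and not the spread between cells or embryos. The difference comes from 1 plate and did not pass the call. *lamc1* had 203.99 CPM in fibroblasts and 204.6 CPM in endothelial cells, and *LAMB1* copy 2 had 234.1 CPM in fibroblasts and 288.4 CPM in endothelial cells. *LAMB1* copy 1 was lower in fibroblasts (112.3 CPM) than in endothelial cells (230.6 CPM), at a ratio of -1.03. The other members lower in fibroblasts were *ITGA6* (-4.81), *itgb2* (-3.52), *itga2.1* (-2.06), *LAMA1* (-1.38) and *itgb3bp* (-1.02). Each of these 5 rested on few cells, since 1 cell held 51.1%, 52.1%, 58.2%, 67.4% and 87.1% of the endothelial counts of the gene. Without its highest cell *itgb3bp* was at 1.32. With the stricter gate 2 plates and 19 endothelial cells entered. Then 16 members were higher and 4 lower, 13 and 3 of them shared, where 32.6% and 9.95% of all genes were called, and *LAMB1* copy 1 was no longer called (-0.09 ± 1.27).

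Neural and immune cells had no comparison of their own but show which members lay outside the fibroblast set. *ITGA6* had 1.75 and 0.977 CPM in fibroblasts of the *vegfc* plates, against 91.5 and 73.9 CPM in neural cells, and *lamb2l* had 1.10 and 1.22 CPM, against 63.1 and 76.9 CPM. *LAMA1* was at 7.32 and 24.4 CPM in fibroblasts and at 29.8 and 83.8 CPM in neural cells. The leukocyte subunit *itgb2* had 1.59, 1.08 and 1.16 CPM in fibroblasts of the 3 plates, against 323.8 and 350.8 CPM in immune cells of the *vegfc* plates, and 49 of 66 immune cells but none of 663 fibroblasts had 20 counts. *itgae.1*, *itgae.2* and *itgb7*, which encode alpha E and its partner beta 7, likewise were at most 2.08 CPM in fibroblasts and at least 85.7 CPM in immune cells of the *vegfc* plates. *ITGA4*, the other partner of beta 7, was found in both, with 100.99 and 144.8 CPM in fibroblasts and 55.8 and 59.8 CPM in immune cells. *ITGB1BP1*, a cytoplasmic binding protein of beta 1, had 96.1 and 95.8 CPM in fibroblasts and between 16.99 and 105.7 CPM in the muscle, epithelial and immune cells of the *vegfc* plates and the endothelial cells of *vegfc* plate 2. It was called higher in fibroblasts against endothelial cells but was not called against muscle or epithelial cells.

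A laminin needs an alpha, a beta and a gamma chain, and cells with 20 counts of at least 1 gene of each class were counted. Only members were used, so *lamb2* was not among the beta chains. They made up 30.8% of 663 fibroblasts (exact 95% interval 27.3 to 34.4), or 28.3%, 40.98% and 26.2% on *vegfc* plate 1, *vegfc* plate 2 and the *pdgfra* plate. Among muscle cells the share was 2 of 33 (6.06%, 0.743 to 20.2), among epithelial cells 3 of 33 (9.09%, 1.92 to 24.3), among neural cells 3 of 58 (5.17%, 1.08 to 14.4) and among endothelial cells 7 of 17 (41.2%, 18.4 to 67.1). These intervals are over cells pooled from plates that hold the kinds in unequal numbers. Within *vegfc* plate 1 the share was 28.3% of fibroblasts, against 0 of 9 muscle, 1 of 24 epithelial and 0 of 17 neural cells. Within *vegfc* plate 2 it was 40.98% of fibroblasts, against 2 of 23 muscle, 2 of 9 epithelial, 3 of 41 neural and 7 of 15 endothelial cells. No immune cell of 66 had all 3 classes, a count of 0 that allows up to 4.55%. Fibroblasts were sequenced to a median of 280312 counts, below that of muscle (376461), epithelial (398529), endothelial (375316) and immune cells (371464). After thinning of all cells to 50000 counts, with 3 counts as the threshold, the shares were 34.1% of fibroblasts, 12.1% of muscle, 9.09% of epithelial, 47.1% of endothelial and 0% of immune cells.

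The combinations were also counted by gamma chain. *lama4*, a *LAMB1* copy and *lamc3* were found together in 21.1% of 663 fibroblasts (18.1 to 24.4) and in none of 17 endothelial cells, which allows a share of up to 17.6%. *lama4*, a *LAMB1* copy and *lamc1* were found together in 80 fibroblasts (12.1%, 9.68 to 14.8) and in 7 endothelial cells (41.2%, 18.4 to 67.1). On the plates the *lamc3* combination was found in 23.03%, 22.95% and 19.2% of fibroblasts, and the *lamc1* combination in 11.8%, 20.8% and 7.32%. *ITGA5* together with an *ITGB1* copy, the chains of the fibronectin receptor, was found in 22.3% of fibroblasts (19.2 to 25.7), 18.2% of muscle (6.98 to 35.5), 12.1% of epithelial (3.40 to 28.2) and 52.9% of endothelial cells (27.8 to 77.02). These shares are pooled over plates and mix plate with kind. The *pdgfra* plate held 49.5% of the fibroblasts but no epithelial or endothelial cell and 1 muscle cell. Fibroblasts there had 98.5 CPM of *ITGA5*, against 375.9 and 338.2 CPM on the *vegfc* plates. Within *vegfc* plate 2 the summed *ITGA5* level was higher in fibroblasts than in endothelial cells.

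**Figure D3:**
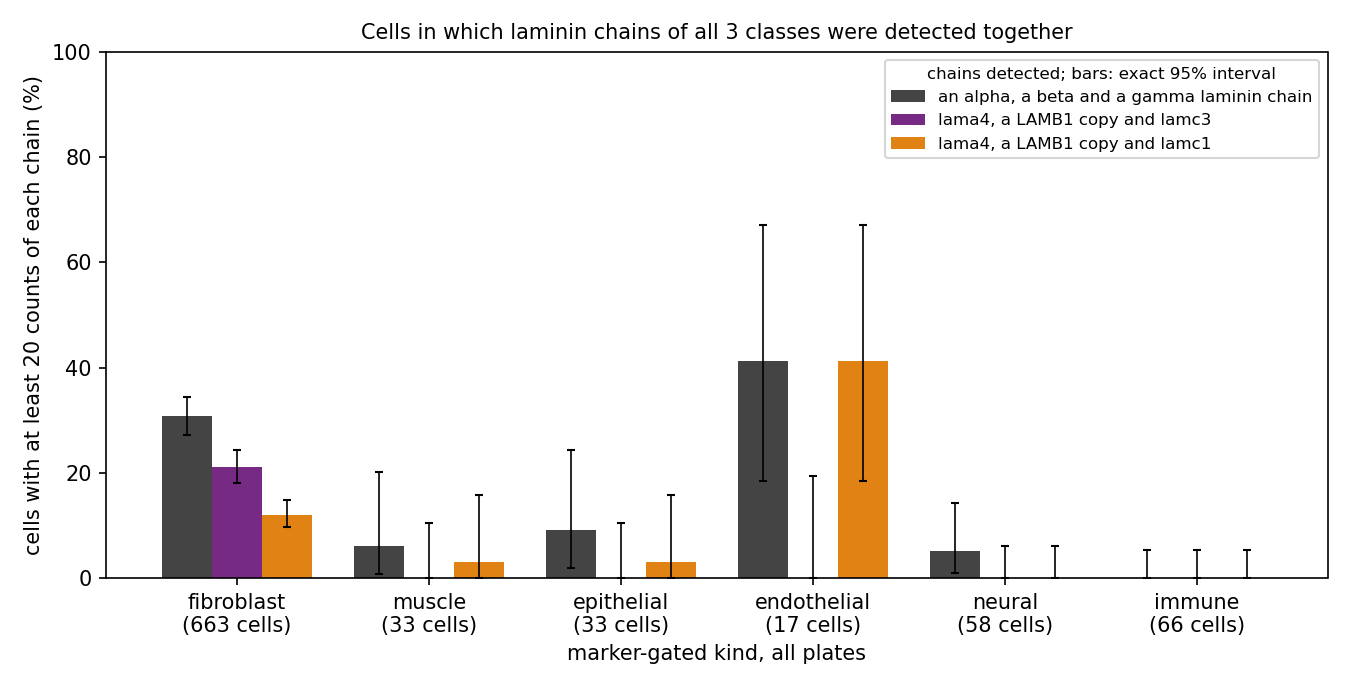
Percentage of cells of each kind, over all plates, with at least 20 counts of a laminin alpha, a beta and a gamma chain (grey), of *lama4*, a *LAMB1* copy and *lamc3* (purple) or of *lama4*, a *LAMB1* copy and *lamc1* (orange). Lines are exact 95% intervals of counting error, and the purple bar is at 21.1% in fibroblasts and at 0% in the 5 other kinds.

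Fibroblasts were divided by genes that mark subsets. These were *en1a* together with *en1b*, the engrailed genes (27.3% of the 663 fibroblasts), *tnmd*, the tendon gene tenomodulin (51 cells), *and1* together with *and2*, the actinotrichia genes of the fin fold (53.2%), and *foxf2a*, a forkhead gene of visceral mesenchyme (36 cells, none on the *pdgfra* plate). The subsets overlapped. Of the en1a/en1b-positive cells 83 also passed the and1/and2 gate, 77 of them on the *pdgfra* plate, where 95.1% of fibroblasts passed it. Of the tnmd-positive cells 43 passed it as well, 41 of them on the *pdgfra* plate. Each subset was set against the 25.5% of fibroblasts that passed no subset gate (62, 94 and 13 cells on *vegfc* plate 1, *vegfc* plate 2 and the *pdgfra* plate), and the 4 comparisons share these cells.

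In en1a/en1b-positive fibroblasts 5 members were higher and 5 lower, where 7.16% and 7.79% of all genes were called on 3 plates, and the median was 0.02 (0 with zeros at the bound) against -0.04 over all genes. *ITGA4* was at 191.5, 462 and 165.8 CPM in en1a/en1b-positive cells of *vegfc* plate 1, *vegfc* plate 2 and the *pdgfra* plate, against 70.6, 48.0 and 7.57 CPM in the other fibroblasts (2.98 ± 1.45, n = 3 plates, as for the following). *ITGA1* had 211.2, 181.5 and 60.7 CPM in en1a/en1b-positive cells, against 57.5, 55.2 and 5.77 CPM (2.25 ± 0.82). *ITGA5* had 690.4, 555 and 213.3 CPM in en1a/en1b-positive cells, against 238.4, 294.4 and 52.3 CPM (1.48 ± 0.55), and its levels in the en1a/en1b-positive cells were above those of the other fibroblasts on each plate. The laminin gamma chain *lamc1* was also higher (1.32 ± 1.02), as was *ITGB8*, a beta partner of alpha V (3.83 ± 1.27), which had 20 counts in 9 of these cells and was at 2.68 without the highest cell.

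*ITGA8* was the lowest in en1a/en1b-positive fibroblasts, with 5.46, 0.158 and 24.1 CPM, against 80.9, 58.5 and 363.2 CPM in the other fibroblasts (-4.40 ± 1.11). *LAMA5* had 1.58, 0.236 and 0.537 CPM, against 23.9, 67.5 and 5.05 CPM (-3.68 ± 1.94). None of the en1a/en1b-positive cells had 20 counts of *LAMA5*, while 11.2% of the others did. *ITGA11* copy 2 (-1.35 ± 1.11), *ITGB1BP1* (-1.18 ± 0.83) and *ITGAV* (-1.05 ± 0.73) were the other members called lower, but *ITGAV* was at 0.12 without the highest cell. With the stricter gate 6 members were higher and 8 lower, 4 and 3 of them shared, where 4.09% and 14% of all genes were called. *ITGA4*, *ITGA1*, *ITGA5*, *ITGB8*, *ITGA8*, *LAMA5* and *ITGA11* copy 2 passed under both gates, while *lamc1*, *ITGAV* and *ITGB1BP1* did not under the stricter one. With it, *itga6b* joined those higher (1.88 ± 1.15) and *ITGB3* copy 1 those lower (-3.61 ± 1.47).

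In tnmd-positive fibroblasts 1 member was higher and 4 were lower, where 3.58% and 12.1% of all genes were called, and the median was -0.03 (0 with zeros at the bound) against -0.33. Only 6 and 3 of these cells came from the *vegfc* plates and 42 from the *pdgfra* plate. *ITGA9* had 0.447, 0 and 34.2 CPM in tnmd-positive cells of *vegfc* plate 1, *vegfc* plate 2 and the *pdgfra* plate, against 62.1, 130.5 and 134.2 CPM in the other fibroblasts (-4.81 ± 2.61, n = 3 plates, as for the following). *itga6b*, an alpha 6 subunit, had 0.447, 0 and 22.04 CPM, against 26.8, 30.3 and 178.9 CPM (-4.07 ± 1.02). *ITGA10* (-3.03 ± 1.74) and *itgb3bp* (-2.07 ± 0.91) were the others, and *itgae.1* was higher at levels of 2.24, 5.45 and 3.54 CPM, with no tnmd-positive cell at 20 counts, and was at -0.52 after thinning of the cells. The low ratios were not particular to tnmd-positive cells, apart from that of *itgb3bp*. Against the same other fibroblasts *ITGA9* was also called lower in and1/and2-positive and foxf2a-positive cells. So were *ITGA10* in and1/and2-positive and *itga6b* in foxf2a-positive cells. With the stricter gate, in which *vegfc* plate 2 dropped out, 3 members were higher and 6 lower, where 4.2% and 22.5% of all genes were called. *ITGA9*, *itga6b* and *ITGA10* were among the lower ones again, and *itgae.1* was not called.

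All 3 classes of laminin chain were found in 23 of 51 tnmd-positive fibroblasts (45.1%, interval 31.1 to 59.7), 16 of 36 foxf2a-positive (44.4%, 27.9 to 61.9) and in 20.99% of en1a/en1b-positive ones (15.3 to 27.7), against 34.9% of the other fibroblasts (27.8 to 42.6). Median depth was 280923 counts in tnmd-positive, 410371 in foxf2a-positive, 240060 in en1a/en1b-positive and 289052 in the other fibroblasts, and its part in these shares was not tested. Cells with *lamb2* as their only beta chain do not count here, and the part of this in each subset was not tested either. The shares are also pooled over plates that held the subsets in unequal numbers, with only 13 of the other fibroblasts on the *pdgfra* plate. On the *pdgfra* plate, which held 42 of the tnmd-positive cells, the share was 40.5% in tnmd-positive (25.6 to 56.7) and 15.2% in en1a/en1b-positive cells (8.10 to 25.03). *LAMB1* copy 1 had 160.09, 305.1 and 316.2 CPM in tnmd-positive cells, against 103.1, 137.6 and 185.02 CPM in the other fibroblasts, a difference under the fold of the call.

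In and1/and2-positive fibroblasts 3 members were higher and 2 lower, where 6.78% and 5.41% of all genes were called, and the medians were -0.02 (-0.02 with zeros at the bound) and -0.01 over all genes. *ITGB3* copy 1 had 37.8, 176.1 and 45.04 CPM in these cells, against 21.1, 39.9 and 0.361 CPM in the other fibroblasts (2.67 ± 2.19, n = 3 plates, as for the following). A single and1/and2-positive cell held 57.75%, 23.96% and 7.30% of these counts on the 3 plates, and 3 of 30 cells of *vegfc* plate 1 had 20 counts. The 0.361 CPM of the *pdgfra* plate was 1 count in 13 cells. *ITGB1* copy 1 had 15.5, 49.8 and 21.4 CPM, against 6.68, 0.131 and 0 CPM (3.69 ± 2.30), and *ITGB1* copy 2 was higher by 1.13 ± 1.01 at levels of at most 3.90 CPM. *ITGA9* (-2.52 ± 3.17) and *ITGA10* (-1.32 ± 1.58) were lower, although *ITGA10* was at 1.53 with the plates summed together. Since nearly every fibroblast of the *pdgfra* plate passed this gate, the stricter one changed it most, to 44 cells (4, 5 and 35). Under it *ITGB3* copy 1 had 203.1, 117.6 and 167.2 CPM, against 24.6, 46.5 and 15.2 CPM (2.56 ± 1.09), and *ITGB1* copy 1 remained higher (3.13 ± 1.18). *ITGAV* (1.90 ± 1.25) and *ITGA8* (1.11 ± 0.84) were higher as well, which made 4, and 13 members were lower in place of 2, among them *ITGA1* (-4.64 ± 1.71), *ITGB4* (-3.91 ± 0.63) and *itga6b* (-3.85 ± 0.13). At that gate 4.11% of all genes were higher and 21.9% lower.

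In foxf2a-positive fibroblasts of the *vegfc* plates (12 and 24 cells) 2 members were higher and 10 lower, where 10.1% and 17.9% of all genes were called, and the median was -0.48 (-0.34 with zeros at the bound) against -0.10 over all genes. *LAMA1* had 30.6 and 94.2 CPM in foxf2a-positive cells, against 6.11 and 14.5 CPM in the other fibroblasts (2.39 ± 0.33, n = 2 plates, as for the following), and 13 of 36 cells had 20 counts. *ITGB8* was the other (2.93 ± 1.66), with 20 counts in 3 of 36 cells. A single cell held 63.5% and 87.5% of its counts on the 2 plates, and the ratio was 1.71 without the highest cell. *ITGB3* copy 1 had no count in foxf2a-positive cells and 21.1 and 39.9 CPM in the others (-4.91 ± 0.63). *ITGA8* (-4.03 ± 2.44), *lama2* (-3.84 ± 1.43), *lamc3* (-3.23 ± 2.77), *ITGB4* (-2.68 ± 0.56) and *ITGA11* copy 2 (-2.34 ± 1.5997) followed. *lama2* had 6.29 and 0.396 CPM in foxf2a-positive cells, against 50.7 and 39.3 CPM. *lamc3* had 2.25 and 97.7 CPM, against 117.4 and 237.2 CPM. *ITGA5*, by contrast, had 557 and 319.4 CPM, against 238.4 and 294.4 CPM, and did not pass the call. With the stricter gate (5 and 6 cells) *LAMA1* had 0 and 123.8 CPM, against 11.03 and 14.1 CPM, and neither it nor *ITGB8* was called, while 12 members were lower, 9 of them shared. At that gate 6.86% of all genes were higher and 27.3% lower.

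**Figure D4:**
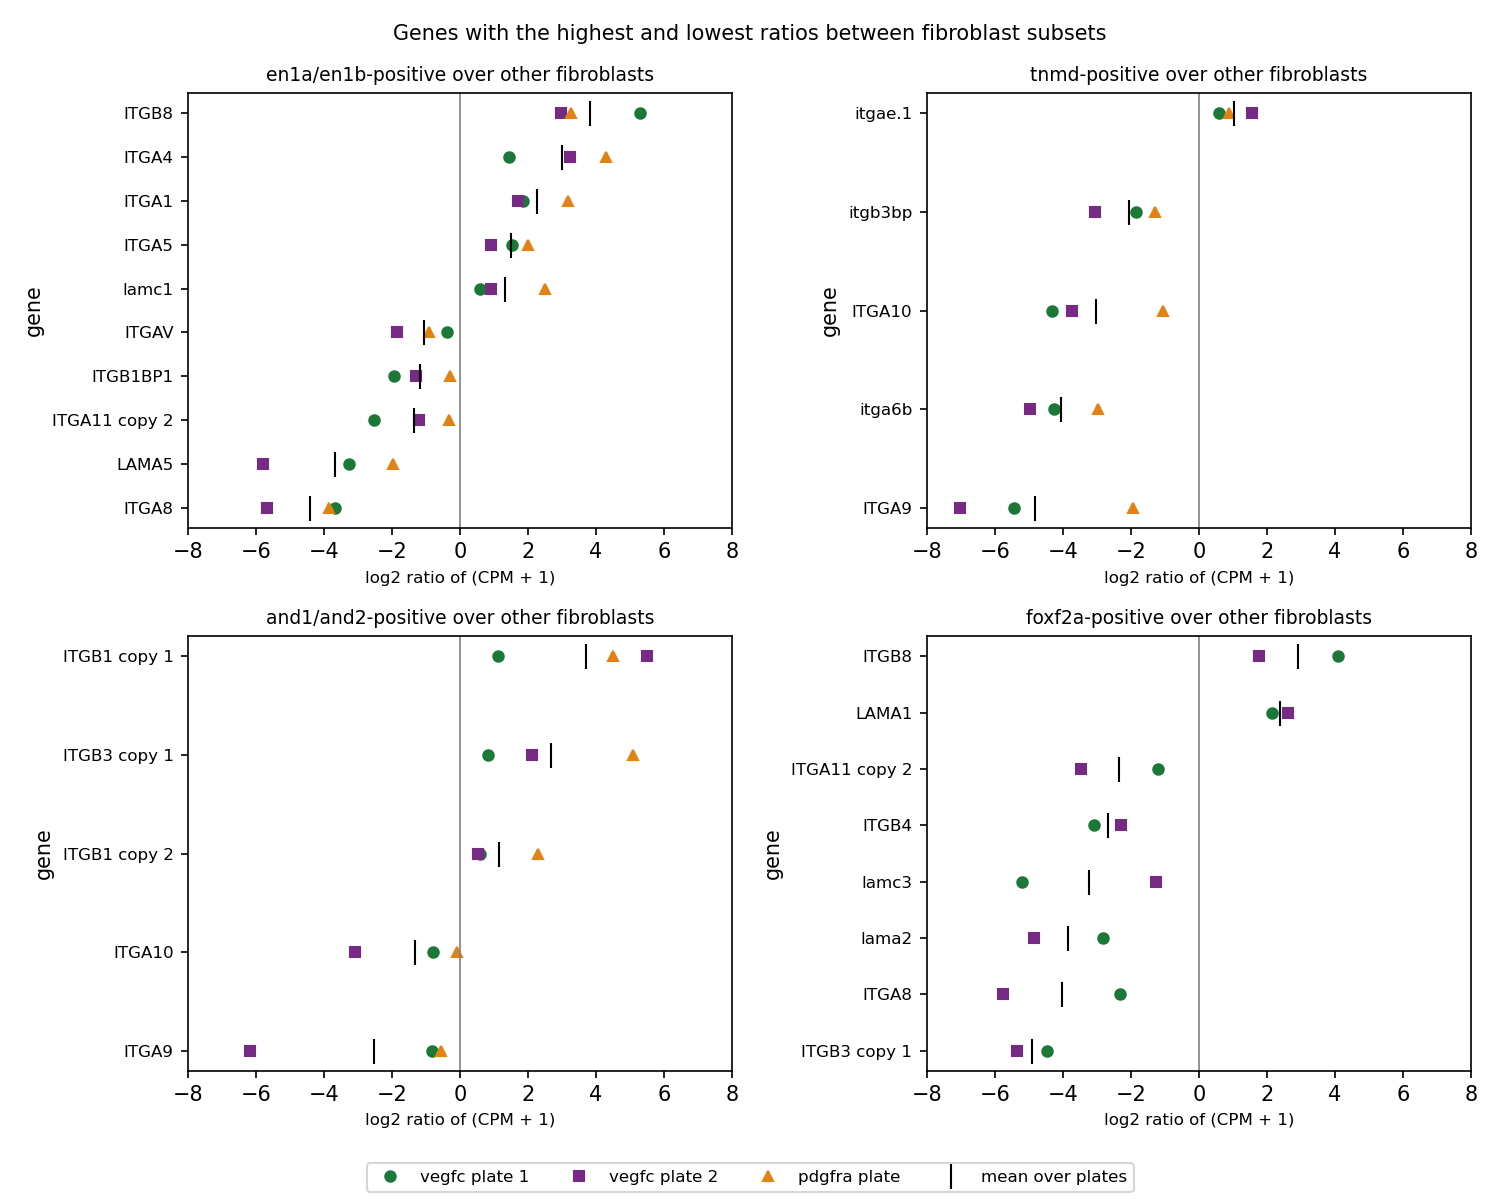
Log2 ratios of (CPM + 1) for the up to 6 highest and 6 lowest called genes of each fibroblast subset over the fibroblasts that passed no subset gate. Circles, squares and triangles are the plates and black bars the mean. *ITGA4*, *ITGA1* and *ITGA5* lie above 0 and *ITGA8* and *LAMA5* below 0 on each of the 3 plates in en1a/en1b-positive cells.

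Fibroblasts of the *pdgfra* plate were set beside those of the 2 *vegfc* plates, where line, sorted reporter and plate cannot be told apart. A member was called here at a log2 ratio past 1 against each *vegfc* plate. By this rule 4 were higher and 6 lower, where 4.89% and 7.02% of all genes were called, and the median was -0.20 against -0.11 over all genes. *ITGA10*, a collagen receptor subunit, had 57.5 CPM on the *pdgfra* plate, against 17.2 and 11.2 CPM on the *vegfc* plates, *itga6b* had 100.8 CPM, against 48.3 and 49.5 CPM, and *ITGB1* copy 1 had 20.7 CPM, against 6.74 and 3.35 CPM. *ITGA3* was the fourth, at 1.996 CPM. *ITGA5* was lower, with 98.5 CPM against 375.9 and 338.2 CPM, as were *ITGA11* copy 2 with 39.6 CPM against 132.3 and 100.98 CPM and *ITGA1* with 37.2 CPM against 92.3 and 82.8 CPM. *LAMA5* had 3.96 CPM, against 24.5 and 48.4 CPM, and *LAMA1* had 2.84 CPM, against 7.32 and 24.4 CPM. *itga2.3* was the last, at 0.541 CPM. Under the stricter gate 3 were higher and 5 lower, where 5.28% and 7.03% of all genes were called. *lamc3*, *LAMB1* copy 1 and *ITGA4* were not called, with 206.8, 116.4 and 113.6 CPM on the *pdgfra* plate, against 161.15 and 213.9, 110.9 and 112.3, and 100.99 and 144.8 CPM on the *vegfc* plates.

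Other genes of basement membranes and of integrin signalling were counted from 3 lists. Of 12 partners of laminin in basement membranes (collagen IV chains, perlecan, agrin, dystroglycan and others), 9 were matched and 8 tested. Against muscle 5 were higher in fibroblasts and none lower (*col4a1*, *col4a2*, *col4a5*, *col4a6* and *col18a1a*), where 31.3% of all genes were higher, with a median of 1.21 against 0.44 over all genes. Against epithelial cells 3 were higher and 1 lower, where 24.7% and 16.3% of all genes were called (median 0.38 against 0.17). Against endothelial cells 3 were higher and none lower, where 32.2% of all genes were higher (median -0.47 against 0.21), and the counts of higher genes against these 2 kinds lie near the shares of all genes. In foxf2a-positive fibroblasts 2 were higher and 4 lower, among them *col4a1* and *col4a2*, where 10.1% and 17.9% of all genes were called (median -0.88 against -0.10). Of 18 adaptor genes that link integrins to actin, 10 were tested. Their medians were 0.64 against muscle, 0.91 against epithelial and -0.11 against endothelial cells, where those of all genes were 0.44, 0.17 and 0.21. The talin genes *tln1* and *tln2b* and the kinase gene *ilk* were higher in fibroblasts than in muscle and *parvb* and *ptk2ab* lower, where 31.3% and 12.7% of all genes were called. Against epithelial cells *tln1*, *tln2b*, *fermt2* and *ilk* were higher and *fermt1* lower, where 24.7% and 16.3% were called. Against endothelial cells *tln2b*, *fermt1* and *parvb* were higher and *parvg* lower, where 32.2% and 14% were called. The 3 of 10 higher against muscle and against endothelial cells lie near these shares. Of 10 other integrin ligands only 4 were tested, of which *egfl6* and *tgfbi* were higher in fibroblasts than in each of the other 3 kinds. *npnt* was higher than in muscle and endothelial cells, but *npnt* and *spp1* were lower than in epithelial cells. The counts of higher genes were 3 against muscle, 2 against epithelial and 3 against endothelial cells, where 31.3%, 24.7% and 32.2% of all genes were higher.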

How the data were processed

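Reads had been adapter-trimmed (trim galore) and mapped by the authors to the GRCz11 build with TopHat2, which calls Bowtie2, and were counted per gene with featureCounts (the strand setting is not given in the sources used here). Cells had been kept by depth, number of genes and share of spike-ins. The authors deposited raw counts of 32151 rows, of which 92 spike-ins and 2 reporters were left out. The submitters' processing notes name danRer11 and GRCz11 as builds.

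Symbols were taken from a names table, which named 28988 of 32057 identifiers. For markers, pairs in the study's source data and a match without regard to case were also used, and 59 of 65 marker entries were matched. Counts were summed by kind and plate, scaled to CPM and compared with a pseudocount of 1 CPM. The share of cells with at least 20 counts has an exact Clopper-Pearson 95% interval and summed counts an exact Poisson interval. Up to 6 called members in each direction are named per comparison. The members, markers, lists and rules were chosen with earlier results of these data known, and the list counts support nothing independently. Since each labelled sample is 1 cell and no animal or pool is named, no p-value was computed. Depth per cell was between 50045 and 782140 counts, PCR copies could not be told apart in the deposited counts, and no doublet caller was run here. The authors' methods name a removal of doublets with samtools after mapping, without saying whether reads or cells are meant. Separately, they name an upper limit on genes per cell against potential doublets.

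The ratio step, checked on simulated counts, was run with Python 3.11.15, numpy 2.4.6, pandas 2.3.3 and scipy 1.17.1. Alternatives varied the marker threshold (10 and 50 counts, 1 marker more, or stricter for abundant markers), the kinds (28 Leiden clusters in scanpy 1.11.5, made without the members), the averaging, the pseudocount (10 CPM), the scaling (TMM in edgeR 4.0.16), the filter, the depth (cells thinned to 50000 counts) and the plates. The stricter gate and a reference of all fibroblasts outside a subset were chosen after seeing the data.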

Additional observations from a re-analysis of the deposited data

Results flagged for a closer look

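Among the 32 described genes, 2 ratios were past 1 on the log2 scale on the *pdgfra* plate and past -1 on both *vegfc* plates. Smaller shifts in opposite directions are not listed, and the differences between the plates were not tested. *ITGB3* copy 1 was at 2.98 CPM in en1a/en1b-positive cells of the *pdgfra* plate, against 0.361 CPM in the other fibroblasts there (1 count in 13 cells), a log2 ratio of 1.55. On the *vegfc* plates it was at 2.29 and 0.236 CPM in en1a/en1b-positive cells, against 21.1 and 39.9 CPM. *LAMA1* was at 2.95 CPM in and1/and2-positive cells of the *pdgfra* plate, against 0 CPM in the other fibroblasts, a log2 ratio of 1.98, and at 0.115 and 0.271 CPM on the *vegfc* plates, against 6.11 and 14.5 CPM.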

How the results depend on the processing

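Of 1332 ratios of single members under an alternative, 1079 were classed as unmoved, 19 changed sign and the others moved by more. For comparisons of several plates, unmoved means a shift below the spread over plates. Most moved with a pseudocount of 10 CPM (53 of 94), without the highest cell of each gene (33 of 94) and with clusters (32 of 94). Under these 3 alternatives a further 0, 2 and 3 changed sign. The cause of these changes was not tested. Part of the 1079 was fixed in advance, since leaving out a plate cannot move a mean over plates by more than their SD. These were all 76 ratios without *vegfc* plate 1, all 76 without *vegfc* plate 2 and all 20 without the *pdgfra* plate. The filter on low counts does not enter a ratio, so its 94 unmoved ratios are no check either. Against endothelial cells, with 1 plate, there is no spread over plates to set a change against, although these ratios are among the 1332. *LAMA5* against muscle was at 1.38 with 10 counts for a marker. *itgb3bp* against muscle was at 1.27 with 10 counts, 0.55 with 50 counts, 0.56 with clusters and 0.39 with the stricter gate. Against endothelial cells it was at 0.98 with 50 counts, 0.90 with 1 marker more, 0.80 with clusters, 1.32 without the highest cell and 0.82 with the stricter gate, and in tnmd-positive cells at 0.14 with pooled sums. *ITGAV* in en1a/en1b-positive cells was at 0.36 with 50 counts and at 0.12 without the highest cell, and against epithelial cells at -0.25 with clusters as kinds. *ITGA10* was at 0.37 in tnmd-positive and at 1.53 in and1/and2-positive cells with sums pooled over plates. *itgae.1* in tnmd-positive cells was at -0.52 after thinning, and in foxf2a-positive cells *LAMA1* was at -0.27 and *ITGB8* at -0.33 with the stricter gate, which was chosen after seeing the data.

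Counts of members called that moved by over 1.5 times are given by alternative. The share of all genes called is given only for the main and the stricter gate. Counts under the other alternatives therefore have no such share beside them and do not show whether members stand out from all genes. With 10 counts for a marker 3 were lower in en1a/en1b-positive and 6 higher in tnmd-positive cells. With 50 counts 2 were lower against endothelial cells and 9 in and1/and2-positive cells. With 1 marker more, 2 were lower against endothelial cells, 4 higher in tnmd-positive and 1 lower in and1/and2-positive cells. With clusters 14 were higher against muscle and 3 lower against endothelial cells. Without the highest cell of each gene 0 were lower against muscle, 4 against epithelial, 3 against endothelial and 2 in en1a/en1b-positive cells, and 0 were higher in tnmd-positive cells. With a pseudocount of 10 CPM 1 was lower against muscle, 3 against endothelial and 1 in and1/and2-positive cells, and 0 were higher in tnmd-positive and 1 in foxf2a-positive cells. TMM scaling left 0 higher in tnmd-positive cells, and thinning gave 9 higher in en1a/en1b-positive cells. With pooled sums 5 were lower against muscle and 11 in en1a/en1b-positive cells, 8 were higher in tnmd-positive cells, and 6 were higher and 6 lower in and1/and2-positive cells.

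Without *vegfc* plate 1, 3 were lower in en1a/en1b-positive and 4 in and1/and2-positive cells, and 4 higher in tnmd-positive cells. Without *vegfc* plate 2, 5 were lower against muscle, 4 higher in tnmd-positive, 9 higher and 0 lower in and1/and2-positive, and 5 higher and 16 lower in foxf2a-positive cells, and no value could be given against endothelial cells. Without the *pdgfra* plate, 10 were lower in en1a/en1b-positive, 10 in tnmd-positive and 6 in and1/and2-positive cells. Under the stricter gate 8 were lower in en1a/en1b-positive, 3 higher in tnmd-positive (2 plates), 13 lower in and1/and2-positive and 1 higher in foxf2a-positive cells. With all fibroblasts outside the subset as comparison, also chosen after seeing the data, 3 were higher in tnmd-positive cells.

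The share of cells with all 3 classes of laminin chain depended on the threshold. At 1 count it was 85.97% of fibroblasts, 57.6% of muscle, 72.7% of epithelial, 82.4% of endothelial, 48.3% of neural and 45.5% of immune cells. At 50 counts it was 19.2% of fibroblasts and 0% of muscle cells. No paired analysis was possible because the results come from no test, and the ratios between groups were already taken within a plate. The small numbers of muscle, epithelial, endothelial and tnmd-positive cells and the lack of molecular identifiers limit the precision of the values.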
